A study of Mus musculus with 6 samples.

Results

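The genes described here encode the nuclear part of oxidative phosphorylation (OXPHOS): the subunits of respiratory complexes I to IV and of the ATP synthase, complex V, with a set of factors that assemble them. They were chosen by gene symbol (names that start with Nduf, Sdha to Sdhd, Uqcr, Cox followed by a digit, or Atp5, together with Cyc1, Cycs and Usmg5), and 95 of the 9093 genes of the table met the rule. Complex I gave 7 core and 27 accessory subunits, complex II gave 4, complex III 9, complex IV 14 with the supercomplex factor Cox7a2l, complex V 14, and 20 were assembly factors. No gene of the table carried the symbols Cycs, Atp5g1 or Atp5g2. The study measured ribosome-protected fragments (footprints) and input mRNA in mouse embryonic stem (ES) cells in which Mettl5, the methyltransferase that modifies 18S ribosomal RNA, had been knocked out (KO) with CRISPR/Cas9, and in wild-type (WT) ES cells. Both genotypes came from 129Sv females crossed with C57BL/6 BVSC males, and both grew in N2B27 medium with PD0325901 (1 µM), CHIR99021 (3 µM) and LIF (1000 U per ml), which hold ES cells in an undifferentiated state. Footprints were sequenced in 2 KO and 2 WT libraries, and input in 1 KO and 1 WT library. The labels give neither separate cultures nor the number of KO clones, and p-values hold no more than the library-to-library spread, possibly a technical one.

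Complexes I to IV pass electrons from NADH and succinate to oxygen, complexes I, III and IV pump protons across the inner mitochondrial membrane, and the ATP synthase uses that gradient to make ATP. A few subunits are encoded and translated inside mitochondria, whereas all genes described here are transcribed in the nucleus and translated by cytosolic ribosomes, the ribosomes that carry the 18S RNA modified by Mettl5. ES cells in such media use both glycolysis and mitochondrial respiration.

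Mettl5 itself had 9.71 and 11.2 footprint counts scaled to the library total (CPM) in KO libraries, against 123 and 127 CPM in WT libraries. Libraries held 2060010 and 3472613 KO and 3524739 and 8675267 WT footprint reads, and 15931259 KO and 17912908 WT input reads. Every OXPHOS gene had at least 16 reads in each footprint library, and all 95 passed the filters on low values. All 10 pluripotency markers examined were measured. By the edgeR test described below, 5 were higher and 2, Sall4 and Tfcp2l1, lower in KO footprints. These were 50% and 20%, against 18.3% and 16% of all genes. Of 13 fibroblast markers, 3 were measured and all were lower in KO, with summed levels of 30.6 and 22.7 CPM in KO libraries, against 365 and 372 CPM in WT libraries. Of 13 endoderm markers, 5 were measured and all were lower in KO, with summed levels of 1836 and 1894 CPM in KO libraries, against 3220 and 3222 CPM in WT libraries. These marker levels move with genotype in the same libraries as every result below, and their part in the results was not tested. In bulk samples, fewer cells of a type and less RNA per cell cannot be told apart.

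Individual OXPHOS genes changed in both directions in KO cells, with a median change close to 0. Footprints of 21 of the 95 genes were higher and those of 21 were lower in KO (22.1% each; edgeR quasi-likelihood test, Benjamini-Hochberg adjusted p under 0.05 over 9093 genes), against 18.3% higher and 16% lower among all genes tested. The other 53 missed the threshold. OXPHOS genes had more footprints than most genes, with a median of 162 CPM in WT, against 42.0 CPM over all genes. Of the 4394 genes with at least as many footprints in WT as the lower quartile of the OXPHOS genes, 1019 rose and 1022 fell. The shares of all genes set beside each complex below are not matched for footprint level, so a higher share there is a description. The median log2 change in footprints was 0.011 over the OXPHOS genes and -0.00027 over all genes. The OXPHOS changes had an SD of 0.31 on the log2 scale and all genes one of 0.39. Among all 9093 genes, 496 were called higher and 444 lower with a change past 1.5-fold. Among the OXPHOS genes 3 were called higher past it (Sdhaf3, Ndufa12 and Cox5b) and 2 lower (Ndufs3 and Cox10). Both KO libraries lay above both WT libraries in 29 genes (30.5%) and below both in 38 (40.0%), against 29.8% and 34.8% of all genes. Together the 95 genes took 3.11% and 3.14% of footprints in KO libraries, against 3.19% and 3.16% in WT libraries. DESeq2 called fewer of them, 10 higher and 9 lower, against 9.20% and 7.58% of the genes to which it gave an adjusted p. Leaving out single libraries gave 14 to 22 higher and 15 to 16 lower calls.

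**Figure D1:**
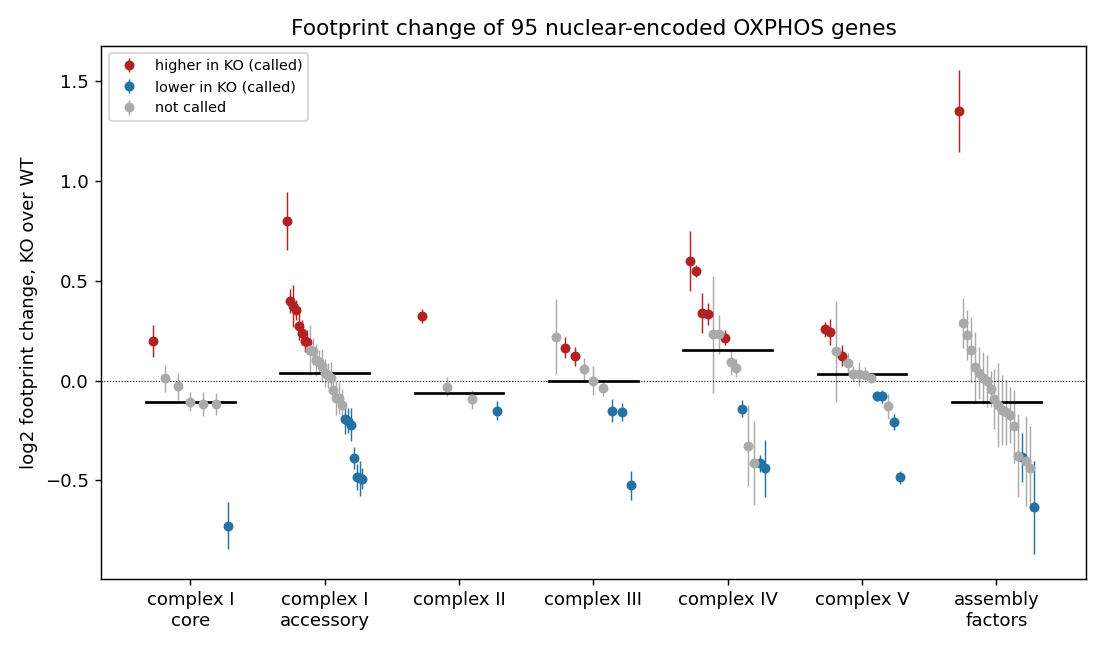
Log2 footprint change (KO over WT, vertical axis) of each of the 95 genes, grouped by complex, with bars for 1 SE. Coloured points passed the edgeR test, and in every group points lie on both sides of 0.

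The sequence near the start site was compared because many genes of mitochondrial respiration carry the same short elements there. RefSeq windows of 250 bases before to 50 after the start (GRCm38.p6) were found for 81 of the 95 genes, 88 windows in all. The letters AAGATGGCG, which combine a YY1 site with the ATG of the TISU element of very short 5′ leaders, were searched on both strands and stood in 12.5% of the OXPHOS windows, against 3.52% of the windows of all genes of the table. The letters of an NRF1 site (GCGC, any base, then TGCGC) stood in 21.6%, against 11.2%. CCGGAAG, the core of the ETS sites that GABP binds, stood in 29.5%, against 19.6%. None of the 3 letter strings contains another. Across all promoters of the RefSeq table the shares were 1.4%, 4.60% and 8.86%. AAGATGGCG began 11 to 36 bases after the start in 9 of the genes. Of these, 0 rose and 3 fell in KO footprints (Atp5j2, Cox10 and Ndufs6; median log2 change -0.12; 16% lower among all genes), against 21 higher and 18 lower of the other 86 (median 0.013), some of which had no window. Of the 3, DESeq2 called Atp5j2 alone (Cox10 0.249, Ndufs6 0.249). The overlap with footprint calls is a description of these 9 genes, and a match is not a shown site. The 9 are given 5′ to 3′ on the gene's strand with AAGATGGCG in capitals.
Atp5j2, chr5:145191504-145191533, minus strand: ggacaccaggacttcAAGATGGCGtcactc
Cox10, chr11:64079437-64079466, minus strand: agagggcgggctagcAAGATGGCGgcgccc
Ndufs6, chr13:73328435-73328464, minus strand: tcaagggtcaccggcAAGATGGCGgcggtg
Ndufs7, chr10:80249458-80249487, plus strand: ctgaaggccgaggccAAGATGGCGgcgctg
Ndufa9, chr6:126849101-126849130, minus strand: gaggcattgtgggagAAGATGGCGgccgcc
Ndufc1, chr3:51408919-51408948, minus strand: cggagcctgcggaacAAGATGGCGccgtcc
Ndufs4, chr13:114388045-114388074, minus strand: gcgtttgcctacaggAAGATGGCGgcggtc
Ndufaf8, chr11:120098929-120098958, plus strand: gaagaggcagggcccAAGATGGCGgcgccc
Atp5sl, chr7:25619425-25619454, plus strand: tttacgttacctggcAAGATGGCGgcgccc
The other 2 of the 11 windows with AAGATGGCG are not printed. Of the windows with the NRF1 letters, 3 are shown as examples, with those letters in capitals, for genes whose values are given in full below.
Uqcrc1, chr9:108936668-108936697, plus strand: actccgctctGCGCATGCGCagcgcggctc
Atp5g3, chr2:73911295-73911324, minus strand: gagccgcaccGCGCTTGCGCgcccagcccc
Atp5o, chr16:91931602-91931631, minus strand: gctggcgcgcGCGCGTGCGCtctggcgcca

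Several changes went along with the gene's position in the genome. All genes of chromosomes 6 and 8 had median log2 footprint changes of 0.31 and 0.39, and those of chromosomes 11 and 16 of -0.19 and -0.25, whereas the medians of the other chromosomes lay between -0.044 and 0.047. Input showed the same signs, with medians of 0.35, 0.31, -0.24 and -0.13 on chromosomes 6, 8, 11 and 16, against -0.12 to 0.23 on the others, a range that chromosome 16 left only narrowly. On chromosomes 6 and 8, 7 of 8 OXPHOS genes rose and 0 fell. On chromosomes 11 and 16, 4 of 8 fell and 0 rose. The share of all genes of these chromosomes that was called was not counted, so these counts are descriptions and not a result about OXPHOS genes. Of the 79 genes elsewhere 14 rose and 17 fell, at a median of -0.0036. Set against the median of its own chromosome, the log2 change of Cox4i1 was 0.16, that of Ndufb7 0.010, that of Ndufa4 0.022 and that of Atp5o 0.037. That of Sdhaf3 was 1.04, that of Uqcr10 -0.34 and that of Cox10 -0.45. The part of the chromosome-wide shifts in the changes of these genes was not tested.

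**Figure D2:**
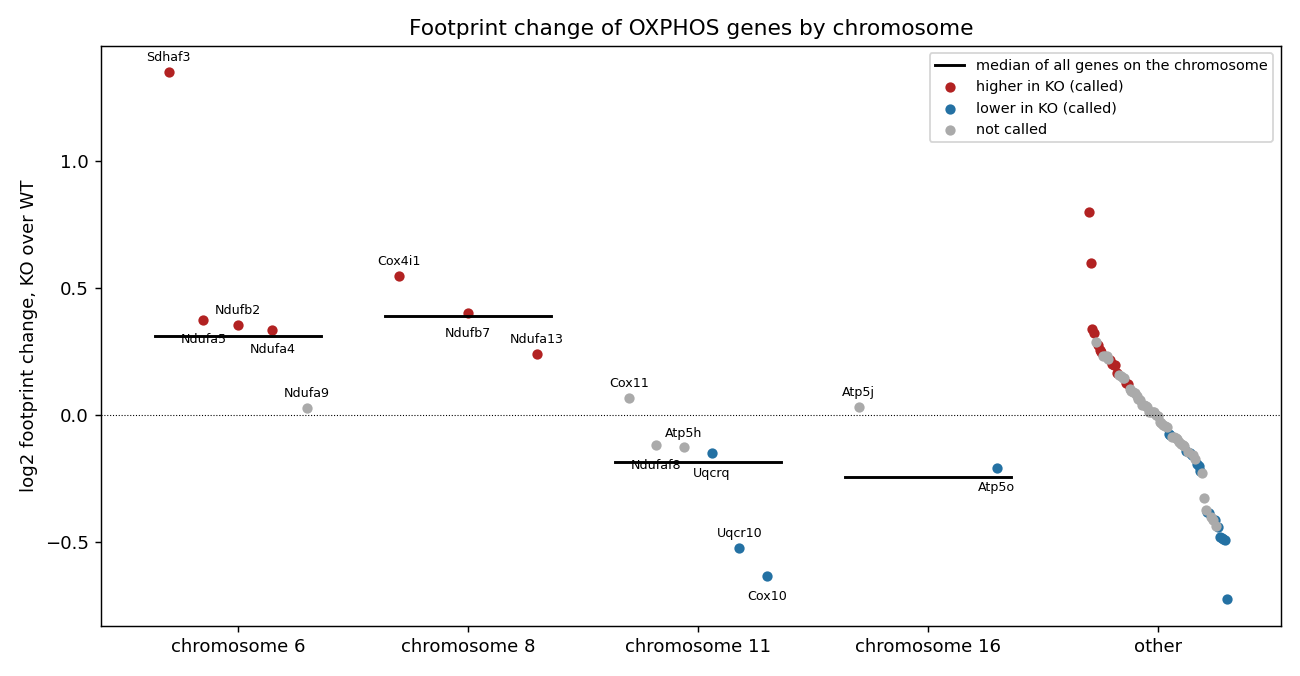
Log2 footprint change (KO over WT) of the OXPHOS genes on chromosomes 6, 8, 11 and 16 and on all others, with lines at the median of all genes of the chromosome. The 7 called genes of chromosomes 6 and 8 lie above 0 and the 4 of chromosomes 11 and 16 below 0.

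Complex I oxidises NADH. Of its 7 core subunits 1 rose and 1 fell (14.3% each, against 18.3% and 16% of all genes), and 5 missed the threshold. Ndufs3, a core subunit of the quinone module (ENSMUSG00000005510.9, chromosome 2, 90894627 to 90904721), had 46.6 and 38.3 CPM in KO libraries, against 66.1 and 71.8 CPM in WT libraries. Both KO values lay below both WT values, a log2 change of -0.73 ± 0.12 (SE) with an edgeR adjusted p of 1.03e-08. Ndufv2, an iron-sulfur subunit of the NADH-oxidising module, had 123 and 127 CPM in KO libraries, against 113 and 109.9 CPM in WT libraries. The libraries did not overlap, yet the log2 change of 0.20 ± 0.080 (SE) passed only narrowly (edgeR adjusted p = 0.0366). It missed the threshold without KO replicate 1 (adjusted p = 0.0586), without KO replicate 2 (0.29), without WT replicate 2 (0.212), with at least 50 counts per library (0.051) and in DESeq2 (0.293). Ndufv1, which binds NADH and FMN, had 337 and 324 CPM in KO libraries, against 370.2 and 353 CPM in WT libraries, without overlap but short of the threshold (adjusted p = 0.0836). Ndufs1, the largest subunit of the complex, had 157 and 171 CPM in KO libraries, against 167 and 167 CPM in WT libraries (adjusted p = 0.922), and its libraries overlapped.

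The 27 accessory subunits of complex I surround the core and are needed for its stability. Of these, 8 rose and 7 fell (29.6% and 25.9%, against 18.3% and 16% of all genes), and 12 missed the threshold. Ndufa12, of the peripheral arm (ENSMUSG00000020022.16, chromosome 10, 94199035 to 94221440), had 43.7 and 45.8 CPM in KO libraries, against 21.3 and 28.7 CPM in WT libraries. No KO value reached down to a WT value, and the log2 change was 0.80 ± 0.15 (SE; edgeR adjusted p = 5.13e-07). Ndufb7, of the membrane arm, had 240.3 and 241 CPM in KO libraries, against 176 and 191 CPM in WT libraries. Its libraries were separate as well, at a log2 change of 0.40 ± 0.060 (SE; adjusted p = 3.84e-10). The other 6 that rose were Ndufa5, Ndufb2, Ndufa6, Ndufa13, Ndufc2 and Ndufa7, with log2 changes of 0.20 to 0.38. DESeq2 called only Ndufb2 of these 6 (adjusted p of the other 5, 0.057 to 0.145). Against the median of its own chromosome, Ndufa13 lay at -0.15 (chromosome 8), and Ndufa5 at 0.063 and Ndufb2 at 0.041 (both chromosome 6). Ndufa6, Ndufc2 and Ndufa7, on chromosomes 15, 7 and 17, lay at 0.27, 0.19 and 0.20. Ndufa1, a small X-linked subunit of the membrane arm (ENSMUSG00000016427.7, chromosome X, 37187588 to 37191238), had 261 and 269 CPM in KO libraries, against 387 and 375 CPM in WT libraries. This was a log2 change of -0.49 ± 0.051 (SE) with no overlap between genotypes (adjusted p = 3.23e-20). Ndufab1, the mitochondrial acyl carrier protein that is also a complex I subunit, had 90.3 and 82.1 CPM in KO libraries, against 112 and 127 CPM in WT libraries. Its KO libraries were both below its WT libraries, with a log2 change of -0.49 ± 0.086 (SE; adjusted p = 1.6e-07). The other 5 that fell were Ndufb3, Ndufa2, Ndufs6, Ndufa3 and Ndufa8, with log2 changes of -0.48 to -0.19. DESeq2 called Ndufb3 and Ndufa2 and missed the other 3 (adjusted p 0.16 to 0.264). Accessory subunits thus lay between -0.49 and 0.80, with a median of 0.039.

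Complex II, succinate dehydrogenase, has 4 subunits and all 4 were measured. Sdhb, the iron-sulfur subunit (ENSMUSG00000009863.14, chromosome 4, 140961271 to 140979198), had 910.2 and 912 CPM in KO libraries, against 751 and 732 CPM in WT libraries. The genotypes were far apart relative to the spread within each, a log2 change of 0.32 ± 0.036 (SE; edgeR adjusted p = 2.59e-17). Sdhd, a membrane anchor, had 336 and 360.2 CPM in KO libraries, against 399 and 392 CPM in WT libraries. Both KO values were lower, at a log2 change of -0.15 ± 0.048 (SE; adjusted p = 0.0069), a call lost without KO replicate 1 (adjusted p = 0.147) and in DESeq2 (0.139). Sdha, the flavoprotein that oxidises succinate, had 340.3 and 359 CPM in KO libraries, against 372 and 386 CPM in WT libraries, which did not overlap but missed the threshold (adjusted p = 0.124). Sdhc, the other anchor, had a log2 change of -0.030 ± 0.047 (SE; adjusted p = 0.665).

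Complex III passes electrons from quinol to cytochrome c. Of its 9 genes 2 rose and 3 fell (22.2% and 33.3%, against 18.3% and 16% of all genes), and 4 missed the threshold. The catalytic subunits encoded in the nucleus did not pass the test. Cyc1, cytochrome c1, had 148 and 141 CPM in KO libraries, against 158 and 139 CPM in WT libraries (edgeR adjusted p = 0.999), and its libraries overlapped. Uqcrfs1, the Rieske iron-sulfur protein, had 231 and 238 CPM in KO libraries, against 243 and 221 CPM in WT libraries, also overlapping (adjusted p = 0.477). Uqcr10, a small subunit next to the catalytic core (ENSMUSG00000059534.8, chromosome 11, 4701968 to 4704344), had 109 and 122 CPM in KO libraries, against 175 and 168 CPM in WT libraries. Its KO libraries lay below its WT libraries, with a log2 change of -0.53 ± 0.073 (SE; adjusted p = 1.76e-11). Uqcr11, another small subunit, had 415 and 411 CPM in KO libraries, against 472 and 465 CPM in WT libraries. The difference was smaller, a log2 change of -0.16 ± 0.045 (SE; adjusted p = 0.00207; 0.0509 without KO replicate 2 and 0.0852 in DESeq2). Uqcrq fell as well, with a log2 change of -0.15 ± 0.058 (SE; adjusted p = 0.0322; 0.264 in DESeq2) and 0.037 against the median of chromosome 11. Uqcrh, the hinge protein, had 312 and 296 CPM in KO libraries, against 284 and 268 CPM in WT libraries. Its libraries were separate, with a log2 change of 0.17 ± 0.053 (SE; adjusted p = 0.00682; 0.0768 without KO replicate 1, 0.216 without WT replicate 2 and 0.169 in DESeq2). Uqcrc2, core protein 2, had 326 and 395 CPM in KO libraries, against 342 and 342 CPM in WT libraries. Its libraries overlapped, since KO replicate 1 lay below both WT values, and its rise rests on KO replicate 2: the log2 change was 0.12 ± 0.048 (SE; adjusted p = 0.0351) with it and -0.051 without it (adjusted p = 0.658). The call was also lost without WT replicate 1 (adjusted p = 0.0655), without WT replicate 2 (0.139), with at least 50 counts per library (0.0662) and in DESeq2 (0.681).

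Complex IV, cytochrome c oxidase, reduces oxygen. Of 14 genes 5 rose and 3 fell (35.7% and 21.4%, against 18.3% and 16% of all genes), and 6 missed the threshold. The median log2 change was 0.15. Cox4i1, the widely expressed form of the largest nuclear-encoded subunit (ENSMUSG00000031818.12, chromosome 8, 120668225 to 120674209), had 2134 and 2024 CPM in KO libraries, against 1406 and 1467 CPM in WT libraries. The genotypes were well separated, with a log2 change of 0.55 ± 0.030 (SE; edgeR adjusted p = 7.68e-71). Cox5b, which binds zinc (ENSMUSG00000061518.10, chromosome 1, 36691487 to 36693388), had 40.3 and 39.7 CPM in KO libraries, against 25.5 and 27.4 CPM in WT libraries. At about as large a log2 change, 0.60 ± 0.15 (SE), its counts were lower and its error wider (adjusted p = 0.000418). Cox5a had 897 and 946 CPM in KO libraries, against 811 and 807 CPM in WT libraries. All KO values were above the WT values, at a log2 change of 0.22 ± 0.036 (SE; adjusted p = 2.46e-08). Ndufa4, named for complex I but assigned to complex IV, had 269 and 293 CPM in KO libraries, against 216 and 235 CPM in WT libraries. It rose by a log2 change of 0.33 ± 0.055 (SE; adjusted p = 1.81e-08), and Cox7b by 0.34 ± 0.10 (SE; adjusted p = 0.00345; 0.146 in DESeq2). Cox8a, the widely expressed form of a small subunit (ENSMUSG00000035885.4, chromosome 19, 7215158 to 7217616), had 435 and 479 CPM in KO libraries, against 616 and 629 CPM in WT libraries. Its KO values were both lower, with a log2 change of -0.41 ± 0.042 (SE; adjusted p = 3.55e-21). Cox6b2, a form best known from testis, had 32.5 and 30.5 CPM in KO libraries, against 46.8 and 41.2 CPM in WT libraries. The libraries were separate, with a log2 change of -0.44 ± 0.14 (SE; adjusted p = 0.0091; 0.16 without KO replicate 2, 0.0764 without WT replicate 1 and 0.139 in DESeq2). Cox6a1 fell by less, a log2 change of -0.14 ± 0.042 (SE; adjusted p = 0.00392; 0.103 in DESeq2).

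Of the 14 genes of complex V, 3 rose and 4 fell (21.4% and 28.6%, against 18.3% and 16% of all genes), and 7 missed the threshold. The alpha and beta subunits form the catalytic head of the ATP synthase. Atp5b, the beta subunit, had 4587 and 4705 CPM in KO libraries, against 4996 and 4965 CPM in WT libraries. Its log2 change of -0.077 ± 0.025 (SE) was small although it passed (edgeR adjusted p = 0.00956), and it was lost without KO replicate 1 (adjusted p = 0.226), without WT replicate 1 (0.0792), without WT replicate 2 (0.0564) and in DESeq2 (0.115). Atp5a1, the alpha subunit, had 4206 and 4168 CPM in KO libraries, against 4197 and 4228 CPM in WT libraries (adjusted p = 0.748), and its libraries overlapped. Atp5d, the delta subunit of the central stalk (ENSMUSG00000003072.15, chromosome 10, 80138698 to 80145828), had 719 and 702 CPM in KO libraries, against 609 and 598 CPM in WT libraries. It rose by a log2 change of 0.26 ± 0.039 (SE) with no overlap (adjusted p = 7.46e-10). Atp5f1, subunit b of the peripheral stalk, had 195 and 186 CPM in KO libraries, against 159.7 and 163 CPM in WT libraries. Its log2 change was 0.25 ± 0.065 (SE; adjusted p = 0.000946; 0.0609 in DESeq2), and Atp5e, the epsilon subunit, had one of 0.13 ± 0.052 (SE; adjusted p = 0.0491; 0.365 in DESeq2). Atp5j2, subunit f of the membrane part (ENSMUSG00000038690.15, chromosome 5, 145183704 to 145191541) and 1 of the 9 genes with AAGATGGCG after the start, had 1022 and 1013 CPM in KO libraries, against 1472 and 1424 CPM in WT libraries. This fall, a log2 change of -0.48 ± 0.033 (SE; adjusted p = 6.3e-46), was the largest in the complex. Atp5o, the subunit that joins the peripheral stalk to the head, had 596 and 587 CPM in KO libraries, against 705 and 684 CPM in WT libraries. Its KO libraries were below its WT libraries, with a log2 change of -0.21 ± 0.040 (SE; adjusted p = 1.51e-06). Atp5g3, of the rotating c ring, had 1342 and 1398 CPM in KO libraries, against 1527 and 1429 CPM in WT libraries (log2 change -0.079 ± 0.032 SE, adjusted p = 0.0376; 0.379 without KO replicate 1, 0.563 without WT replicate 1 and 0.271 in DESeq2). Several small subunits of complexes I, III, IV and V have processed pseudogenes in the mouse genome, and how reads shared with such copies were counted is not given in the sources used here.

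**Figure D3:**
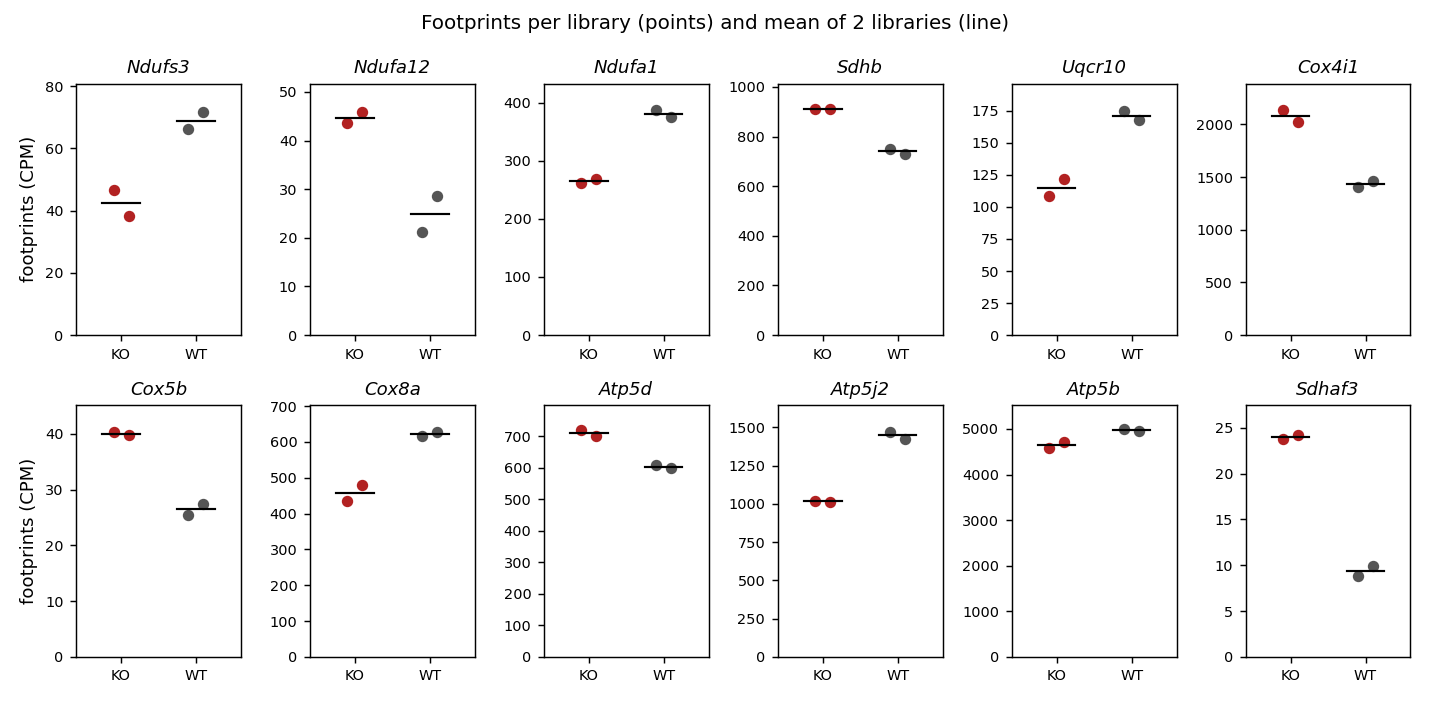
Footprint level (CPM, vertical axis) of 12 genes in each library, KO libraries on the left and WT libraries on the right of each panel, with a line at the mean of each genotype. Of the genes plotted, Ndufa12, Sdhb, Cox4i1, Cox5b, Atp5d and Sdhaf3 lie higher in KO, and Ndufs3, Ndufa1, Uqcr10, Cox8a, Atp5j2 and Atp5b lie lower, without overlap.

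Of the 20 assembly factors 1 rose and 2 fell (5% and 10%, against 18.3% and 16% of all genes), and 17 missed the threshold. Their median level was 27.8 CPM in KO and 28.8 CPM in WT, against 41.1 and 42.0 CPM over all genes. Sdhaf3, which helps to mature the iron-sulfur subunit Sdhb (ENSMUSG00000042505.6, chromosome 6, 6955971 to 7039661), had 23.8 and 24.2 CPM in KO libraries, against 8.79 and 9.91 CPM in WT libraries. This was the largest change among all 95 genes, a log2 change of 1.35 ± 0.21 (SE; edgeR adjusted p = 1.08e-09). Cox10, which farnesylates heme on the way to heme a, had 9.71 and 9.79 CPM in KO libraries, against 15.6 and 15.3 CPM in WT libraries. The libraries were separate, with a log2 change of -0.64 ± 0.24 (SE; adjusted p = 0.0232). That call was lost without KO replicate 1 (adjusted p = 0.0915), without KO replicate 2 (0.188), without WT replicate 2 (0.0844) and in DESeq2 (0.249). Ndufaf3, an early complex I assembly factor, had 41.7 and 42.9 CPM in KO libraries, against 63.8 and 52.2 CPM in WT libraries. Its KO values were lower, at a log2 change of -0.38 ± 0.12 (SE; adjusted p = 0.00819; 0.0739 without KO replicate 2, 0.134 without WT replicate 1 and 0.126 in DESeq2). Of 39 further genes listed as assembly factors whose symbols do not meet the rule, such as Surf1 and Bcs1l, 32 were measured. In footprints 6 rose and 2 fell (18.8% and 6.25%, against 18.3% and 16% of all genes), with a median log2 change of 0.039. The 6 include Atpif1, the ATP synthase inhibitory factor, which is not an assembly factor. Pet100, Coa6 and Cmc2 lie on chromosome 8, and against its median their log2 changes were 0.14, 0.31 and -0.037. Those of Nubpl, Uqcc2 and Atpif1 against their own chromosomes were 0.47, 0.28 and 0.12. DESeq2 called Pet100 of those that rose and Coa7 of those that fell, and missed the other 5 to which it gave an adjusted p. It gave none to Coa6, whose libraries overlapped.

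Regulators and mitochondrial partners of these genes were set beside them. Of 14 regulators of respiratory gene expression 12 were measured, and 3 fell in footprints and 0 rose by edgeR's test. These were 25% lower and 0% higher, against 16% and 18.3% of all genes. The other 9, Nrf1 and Yy1 among them, missed the threshold. Gabpa, the DNA-binding part of GABP, had 332 and 336 CPM in KO libraries, against 411 and 398 CPM in WT libraries (log2 change -0.25 ± 0.048 SE, edgeR adjusted p = 2.4e-06; 0.00498 in DESeq2). Gabpa lies on chromosome 16, and against the median of that chromosome its log2 change was -0.0033. Esrra, an orphan nuclear receptor, had 12.1 and 17 CPM in KO libraries, against 27 and 21.6 CPM in WT libraries (-0.61 ± 0.20 SE, adjusted p = 0.00864; 0.127 in DESeq2). Lrpprc, which stabilises mitochondrial mRNA, had 236 and 230.1 CPM in KO libraries, against 269 and 264 CPM in WT libraries (-0.17 ± 0.056 SE, adjusted p = 0.00995; 0.172 in DESeq2). Of the 13 mitochondrially encoded subunits, which are translated by other ribosomes, 7 were measured. In footprints mt-Cytb rose and mt-Nd6 fell (14.3% each, against 18.3% and 16% of all genes). mt-Cytb, the cytochrome b of complex III, had 303 and 317 CPM in KO libraries, against 212 and 216 CPM in WT libraries (0.56 ± 0.055 SE, adjusted p = 8.29e-23). The input of these mitochondrial genes was higher in KO in 7 of 7, whereas the log2 input ratio of 46.0% of all genes lay below 0. Their median log2 ratio between single libraries was 0.46, against 0.045 over all genes.

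Input mRNA of the OXPHOS genes was measured in 1 library per genotype and was not tested. The 95 genes held 1.74% of input reads in the KO library, against 1.94% in the WT library. The median log2 input ratio was -0.047 over these genes and 0.045 over all genes, and 56 of the 95 (58.9%) lay below 0, against 46.0% of all genes. Past 1.25-fold, 8 were higher (8.42%) and 13 lower (13.7%) in KO, against 29.7% and 18.8% of all genes. The core subunits of complex I had the lowest median of the groups, -0.27, with 6 of 7 below 0. Ndufs1 was the one above 0, with 138 CPM in the KO library, against 99 CPM in the WT library. Atp5b had 3127 CPM in the KO library, against 4148 CPM in the WT library, a log2 ratio of -0.41 (95% counting interval -0.42 to -0.39), and Atp5a1 had 1902 CPM in the KO library, against 2389 CPM in the WT library, a log2 ratio of -0.33 (95% counting interval -0.35 to -0.31). These 2 genes made up 28.9% of the OXPHOS input in KO, against 33.7% in WT, and 28.3% of OXPHOS footprints in both KO libraries, against 28.8% and 29.1% in WT. Sdhaf3 was higher in input as it was in footprints, with 11.9 CPM in the KO library, against 5.25 CPM in the WT library.

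Translational efficiency (TE), the footprint level over the input level, was called higher in KO for 8 OXPHOS genes (8.42%) and lower for 5 (5.26%), against 4.88% and 12.8% of all genes (limma, adjusted p under 0.05 over 9093 genes). Of the 4394 genes with at least as many footprints in WT as the lower quartile of the OXPHOS genes, 406 were higher and 1015 lower. The OXPHOS share of higher calls is therefore not shown to exceed that of genes with similar footprint levels. The median TE change was 0.068 for the OXPHOS genes and -0.032 for all genes, on the log2(CPM + 1) scale. The genes called higher were subunits of all complexes: Ndufv1 of complex I, Sdhb of complex II, Uqcrc1 of complex III, Cox4i1 and Cox5a of complex IV, and Atp5a1, Atp5b and Atp5d of complex V. Atp5d had TE ratios of 3.07 and 2.99 in KO libraries, against 2.17 and 2.14 in WT libraries. Footprints were higher and input lower (log2 ratio -0.26), for a TE change of 0.49 ± 0.070 (SE) and a limma adjusted p of 2.59e-05. Cox4i1 had TE ratios of 2.27 and 2.16 in KO libraries, against 1.64 and 1.71 in WT libraries, a change of 0.40 ± 0.053 (SE; adjusted p = 8.36e-06) with an input log2 ratio of 0.13. Uqcrc1, core protein 1 of complex III, had TE ratios of 1.44 and 1.46 in KO libraries, against 1.17 and 1.11 in WT libraries. Its footprints did not pass the test (-0.038 ± 0.038 SE, adjusted p = 0.468), and its input ratio was -0.41, for a TE change of 0.34 ± 0.064 (SE; adjusted p = 0.000482). Atp5a1 (TE change 0.32 ± 0.034 SE, adjusted p = 5.4e-07) and Atp5b (0.31 ± 0.033 SE, adjusted p = 4.82e-07) had the same form, with little footprint change and less input. In 7 of the 8 genes the input ratio lay below 0, Cox4i1 being the exception, against 58.9% of the 95 genes and 46.0% of all genes. Input is the divisor of TE, so choosing genes by higher TE favours a low input ratio, and the count is a description. For Sdhb, 1 of the 7, the interval covered 0 (-0.020, 95% counting interval -0.079 to 0.039). Sdhb had a TE change of 0.32 ± 0.066 (SE; adjusted p = 0.00136), Cox5a of 0.26 ± 0.065 (SE; 0.00689) and Ndufv1 of 0.32 ± 0.087 (SE; 0.013; 0.0725 without WT replicate 2).

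The genes called lower in TE were 2 of complex I and 1 each of complexes III, IV and V. Ndufa1 had TE ratios of 6.43 and 6.62 in KO libraries, against 11.4 and 11 in WT libraries. Its footprints fell while its input was higher (0.25, 95% counting interval 0.092 to 0.40), for a TE change of -0.77 ± 0.11 (SE; limma adjusted p = 3.86e-05). Atp5j2 had TE ratios of 5.74 and 5.69 in KO libraries, against 8.12 and 7.86 in WT libraries. Its footprints were lower and the interval of its input ratio covered 0 (-0.025, 95% counting interval -0.10 to 0.047), for a TE change of -0.48 ± 0.063 (SE; adjusted p = 8.19e-06). Ndufs1 had TE ratios of 1.14 and 1.24 in KO libraries, against 1.68 and 1.68 in WT libraries, with overlapping footprint libraries and more input (0.47, 95% counting interval 0.38 to 0.56), for a TE change of -0.50 ± 0.12 (SE; adjusted p = 0.00509). Ndufa4 had a TE change of -0.30 ± 0.10 (SE; adjusted p = 0.048; 0.0525 without KO replicate 1 and 0.202 without WT replicate 2), with more footprints and still more input (0.62). Uqcr11 had one of -0.27 ± 0.090 (SE; adjusted p = 0.0433). Of the assembly factors 0 of 20 passed in limma (1 lower, 0 higher before adjustment at 0.05), and 0 by the authors' deposited p-values after adjustment. Without KO replicate 2 the lower TE calls were 10, and without WT replicate 2 they were 3. With 1 input library per genotype, these calls assume that input varies like footprints: when a spread of 0.2 (log2 SD) was added for each input library, limma called 0 of the 95 genes higher and 0 lower (before adjustment, 0 and 1 at 0.05). The p-values of the authors' deposited table, after Benjamini-Hochberg adjustment, called 1 OXPHOS gene, Atp5a1, higher and 0 lower (before adjustment, 20 and 16). An edgeR count model on footprint counts and input reads, if the lowest input value is 1 read, called 24 higher (25.3%) and 9 lower (9.47%), against 15.3% and 19.8% of all genes.

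**Figure D4:**
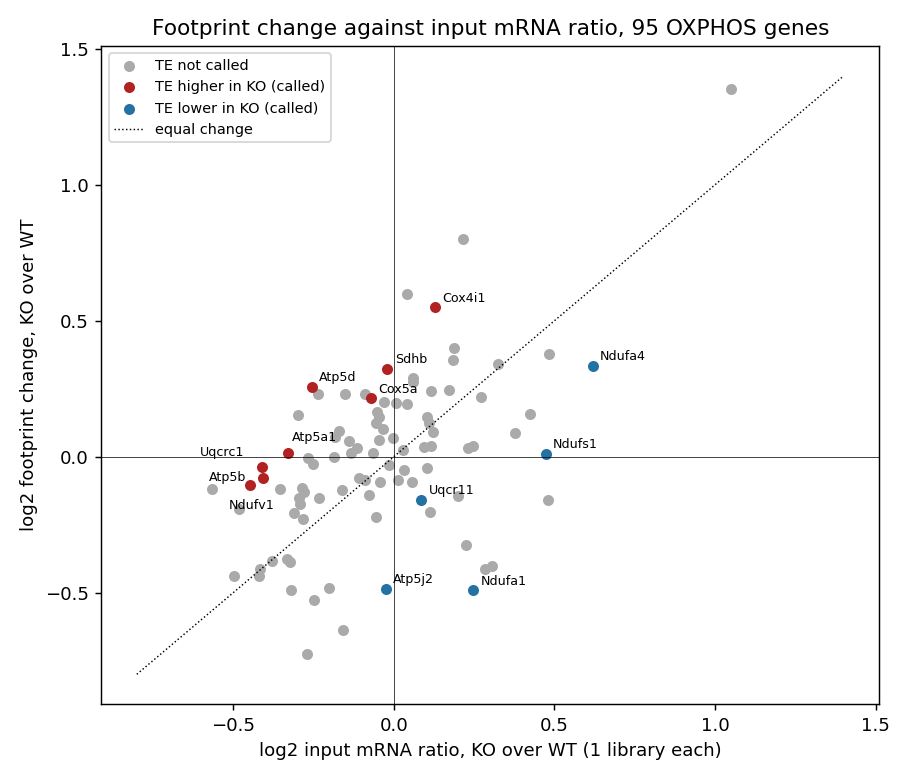
Log2 footprint change (vertical axis) against log2 input ratio (horizontal axis), KO over WT, for the 95 genes, with a line of equal change. Named genes above the line were called higher in TE, and named genes below it lower. Left of 0 lie 7 of the 8 higher ones, a side that the choice by TE favours.

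TE was also compared for the lists set beside the OXPHOS genes. Of all genes, limma called 4.88% higher and 12.8% lower. Of the 32 measured genes listed as assembly factors outside the naming rule, Atpif1 among them, 0 passed in limma (1 lower, 0 higher before adjustment at 0.05). Among the 12 regulators, Pprc1, a coactivator of the PGC-1 family, was higher in TE (0.54 ± 0.11 SE, limma adjusted p = 0.000922). Lrpprc (-1.08 ± 0.10 SE, adjusted p = 9.42e-08), Gabpa (-0.49 ± 0.10 SE, 0.00167) and Tfam, the mitochondrial transcription factor (-0.50 ± 0.16 SE, 0.0313), were lower. Of the 7 mitochondrial genes, mt-Co1 (-1.22 ± 0.070 SE, adjusted p = 4.14e-11), mt-Cytb (-0.57 ± 0.081 SE, 2.03e-05) and mt-Nd6 (-0.53 ± 0.11 SE, 0.00132) were lower and 0 higher. Calls of both lists rest on the same single input libraries: with the added input spread of 0.2, limma called 0 of the 9093 genes lower and 4 higher, none of them on these lists.

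TE levels, unlike CPM, can be set side by side between genes, since gene length cancels in the ratio where footprints and input were counted over the same stretch, which the sources do not state. The median authors' TE ratio of the OXPHOS genes was 1.54 in KO and 1.55 in WT, against 0.854 and 0.890 for all genes. In KO 77 of 95 (81.1%) and in WT 75 of 95 (78.9%) lay above the median of all genes. The 4394 genes with at least as many footprints in WT as the lower quartile of the OXPHOS genes were compared as well. Of these, 64.1% in KO and 63.5% in WT lay above the median of all genes, at medians of 1.09 in KO and 1.12 in WT. Footprints are the numerator of TE, so choosing genes by footprints favours a higher TE by itself. Complex V had the highest median, 2.62 in KO and 2.18 in WT, with 14 of 14 above the median of all genes in both genotypes. Assembly factors had the lowest, 1.06 in KO and 1.07 in WT. The highest ratio was that of Usmg5, a small membrane subunit of complex V, at 124 in KO and 173 in WT, and it rests on 44 KO and 34 WT input reads, if the lowest input value of each library is 1 read. Cox16, a complex IV assembly factor, followed at 17.5 in KO and 11.6 in WT, on 13 and 28 input reads. Ndufa1 had 6.52 in KO and 11.2 in WT. The lowest were Cox7a2l, which links complexes III and IV (0.0575 in KO and 0.0426 in WT), Cox6c (0.105 and 0.156) and Cox10 (0.152 and 0.216). These levels are descriptions, with no test.

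**Figure D5:**
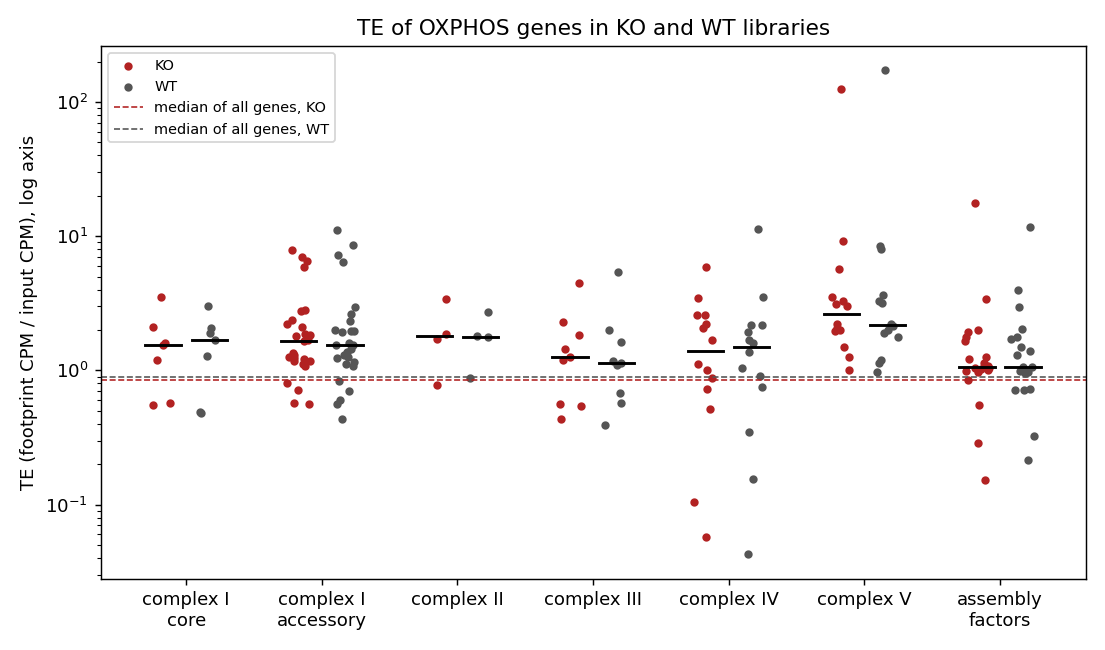
Mean TE ratio (footprint CPM over input CPM, log axis) of the OXPHOS genes by complex, KO left of WT, with lines at the median of all genes. All 14 genes of complex V lie above that median in both genotypes.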

How the data were processed

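Footprints and input mRNA came from 6 libraries, and titles gave each one's genotype and kind. Per the submitters' processing notes, Bowtie and mm10 were used. The read counter, annotation and gene filter were not given in the sources used here. As deposited by the authors, the table holds raw footprint counts per gene, footprint and input CPM (scaled to a library total larger than the table's), TE as a ratio of these CPM, the log2 of the KO over WT mean ratio, and an unadjusted p-value. The input was described both as polyA and as RiboZero RNA. Columns of a second input library repeated the first, and these 2 were not used. Input totals assume that the lowest CPM value is 1 read: 100% of values were whole multiples of it within 0.01.

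Footprint counts were tested with edgeR 4.0.16 (R 4.3.3, quasi-likelihood, TMM, full library sizes), 2 KO and 2 WT libraries, p-values being Benjamini-Hochberg adjusted over 9093 genes at a threshold of 0.05. filterByExpr removed 0 genes. Each gene had 2 residual degrees of freedom, and the common biological coefficient of variation was 2.50%. TE was tested with limma 3.58.1 (trend) as a genotype by library-type interaction on log2(CPM + 1), for genes of at least 1 CPM on average; this understates changes of low genes. Input ratios compare single libraries on the same log2 scale, and their 95% intervals cover counting error only. Footprint fold changes come from edgeR. Replicates differed beyond sampling noise (chi-square per degree of freedom 1.24 in KO, 1.44 in WT). Scripts were tested on simulated data. RefSeq matched 9057 genes and all 95 OXPHOS genes; 4 symbols differ there (Atp5f1, Atp5s, Atp5sl and Usmg5 are Atp5pb, Dmac2l, Dmac2 and Atp5md).

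Values are given per gene for the 2 strongest called rises and falls of each complex, the 4 strongest TE rises and falls, and 11 fixed subunits. Other genes were named to complete short lists, after their values were seen. The members and lists were chosen with earlier results of these data known. Alternatives were DESeq2 1.42.0, other scalings, filters and pseudocounts, a replicate block, an edgeR count model of TE, single libraries left out, and chromosomes 6, 8, 11 and 16 left out.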

Additional observations from a re-analysis of the deposited data

How the results depend on the processing

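Of the 27 footprint calls among the genes given with full values, 16 kept their direction and stayed past the threshold under every alternative in which they were tested, and 11 missed it in at least 1; Uqcrc2 reversed without KO replicate 2 (-0.051; range without single libraries -0.051 to 0.23). DESeq2 called 10 OXPHOS genes higher and 9 lower. Without chromosomes 6, 8, 11 and 16, 13 of 79 were higher. Leaving out single libraries gave 14 to 22 higher and 15 to 16 lower calls, with medians of -0.020 to 0.015. The median footprint change was -0.0030 with at least 50 counts per library and -0.0027 without those chromosomes, so its sign is not settled. With the replicate block, 18 were higher and 19 lower in footprints, and 8 higher and 4 lower in TE. The labels do not say that numbers pair the libraries. Deviations of same-numbered libraries had a correlation of -0.031 over genes, which cannot show whether such libraries were made together. Of 12 TE calls given in full, 0 held under all alternatives. With added input spread 0 were higher and 0 lower in limma (unadjusted p under 0.05: 0 and 1), and the authors' adjusted p-values gave 1 higher and 0 lower. Median centring left 3 lower and gave 12 higher, a TE median of 0.16 and an input median of -0.11. Without single footprint libraries TE gave 7 to 10 higher and 3 to 10 lower calls and medians of 0.027 to 0.068, and without the 4 chromosomes a TE median of 0.0057. Among named genes, Ndufv1 fell in footprints with at least 50 counts (-0.12, adjusted p = 0.0381), and Sdha was lower in TE without KO replicate 2 (-0.21, adjusted p = 0.0325). The count model of TE gave 24 higher and 9 lower calls and a median of 0.10, with input reads taken as multiples of each library's lowest value. Depth limits genes of few reads most: the lowest OXPHOS count in a footprint library was 16.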
